A study of Mus musculus with 11 samples.

Results

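The sonic hedgehog pathway was read in epithelial cells of fetal mouse lung through 9 genes: the ligand gene Shh, Disp1, Ptch1, Smo, Boc, Hhip, Gli1, Gli2 and Gli3. They were chosen by symbol for their place in the pathway, from a table of 24421 genes and with earlier results of these data known. All 9 were found and passed the filter on low counts. Control libraries (n = 6) were compared with libraries labelled PRDM3/16KO (n = 5), in which floxed Prdm3 (now named Mecom) and floxed Prdm16 are recombined by ShhCre, all from embryos at E17.5. Cells were selected with microbeads against the epithelial surface protein EpCAM. Per the labels, the Cre allele came through fathers that were fl/fl for Prdm3 and fl/wt for Prdm16, bred to mothers that were fl/fl for both genes. The labels do not give the alleles of the Control embryos, whether these carry ShhCre, or whether each library is a separate animal. P-values here rest on how far single libraries lie apart, which may be a technical spread.

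Hedgehog proteins are secreted signals that carry lipid anchors, and DISP1 releases them from the cells that make them. On the receiving cell the ligand binds PTCH1, with the help of co-receptors such as BOC, and this frees SMO, which acts through the primary cilium to control the GLI transcription factors. GLI2 works mainly as an activator and GLI3 mainly as a repressor, while Gli1, Ptch1 and Hhip are themselves switched on by the signal, the last 2 as brakes on it. In the developing lung the epithelium makes SHH and the neighbouring mesenchyme is the main tissue that answers, so an epithelial selection holds the sending side of the pathway and only a part of the receiving side.

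ShhCre is an allele in which a Cre gene was placed at the start codon of Shh and which makes no SHH of its own. The ligand gene is therefore also the gene that carries the tool of deletion, and its coding start is shown for that reason. It lies in exon 1 of 3 of transcript Shh-201, on the minus strand at chr5:28466674-28466763 (mm10, GENCODE M21), and capitals mark the start codon.
Shh coding start: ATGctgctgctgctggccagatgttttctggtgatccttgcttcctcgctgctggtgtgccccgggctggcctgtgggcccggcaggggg

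Promoters are shown for the called genes that the RefSeq promoter table (GRCm38.p6) holds: Disp1, Gli2 and Gli3. Each run is the 250 bases before a transcription start, read 5′ to 3′ on the gene's own strand. Capitals mark the letters CCACCC or, on the other strand, GGGTGG, the core of the GLI consensus GACCACCCA, whose other strand reads TGGGTGGTC. The Disp1 run is at chr1:183221530-183221779 (minus strand), the Gli2 run at chr1:119053620-119053869 (minus strand) and the Gli3 run at chr13:15463473-15463722 (plus strand). Another Disp1 promoter, at chr1:183147558-183147807, is not shown. The Gli3 run lies inside the gene as GENCODE M21 gives it, which starts at 15463235.
Disp1: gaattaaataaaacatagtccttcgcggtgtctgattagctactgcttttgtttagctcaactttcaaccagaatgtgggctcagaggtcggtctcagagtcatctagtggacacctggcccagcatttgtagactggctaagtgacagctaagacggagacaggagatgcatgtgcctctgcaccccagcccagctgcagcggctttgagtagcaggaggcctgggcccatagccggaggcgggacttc
Gli2: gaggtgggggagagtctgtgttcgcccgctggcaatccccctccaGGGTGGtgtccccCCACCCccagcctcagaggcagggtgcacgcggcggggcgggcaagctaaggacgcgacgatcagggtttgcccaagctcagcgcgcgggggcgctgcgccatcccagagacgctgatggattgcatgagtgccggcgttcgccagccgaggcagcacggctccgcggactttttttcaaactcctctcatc
Gli3: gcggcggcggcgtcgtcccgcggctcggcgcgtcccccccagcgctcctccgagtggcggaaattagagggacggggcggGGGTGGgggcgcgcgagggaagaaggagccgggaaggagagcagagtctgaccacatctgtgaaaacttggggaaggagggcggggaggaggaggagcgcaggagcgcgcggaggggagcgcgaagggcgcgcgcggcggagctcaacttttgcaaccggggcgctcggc
The search covered these bases and the 50 after each start. The table held 7 promoters for 6 of the genes, and Shh, Boc and Gli1 had no entry. None of the 7 held the full consensus, which 0.253% of all 32851 promoters held. The core stood in the promoters of 4 genes, Gli2, Gli3, Hhip and Smo, and in 31.5% of all promoters, so these matches are a description of the letters only.

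Library totals ran from 6065906 to 7869787 counts. Of 13916 genes tested, 42.9% were called different between the groups by edgeR's quasi-likelihood test (Benjamini-Hochberg adjusted p below 0.05), 21.1% higher and 21.8% lower in PRDM3/16KO, and 28.5% had CPM ranges that did not overlap. CPM are counts scaled to a common TMM-adjusted library size. Without TMM the median over all genes was 0.11 on the log2 scale in place of 0.0023, and 65.6% of the calls were higher in place of 49.2%. Of the targeted genes, Prdm16 ran from 173 to 227 CPM in Control and from 147 to 181 CPM in PRDM3/16KO (log2 fold change -0.28, lower), and Mecom from 206 to 233 and from 321 to 354 CPM (0.64, higher). The Prdm16 call was lost without TMM (-0.18; edgeR, adjusted p = 0.0576), with a mesenchymal covariate (-0.19; edgeR, adjusted p = 0.234) and among libraries with high Y-linked transcripts (-0.18; edgeR, adjusted p = 0.625). Which exons are deleted is not in the labels, whole-gene counts are a weak check of a deletion, and the rise of Mecom goes against the label, so PRDM3/16KO here stands for the libraries so labelled in every direction given. Summed epithelial markers ran from 6967 to 8071 CPM in Control and from 7127 to 7891 CPM in PRDM3/16KO, and of the 10 tested 1 was higher and 4 lower. Cells outside the epithelium left transcripts in every library: 20 mesenchyme markers, of which 8 of 18 tested were higher and 0 lower, summed to 448 to 838 CPM in Control and 696 to 1218 CPM in PRDM3/16KO, and each of the 20 had counts in every library. Of the tested markers, 6 of 7 of mesothelium, 6 of 9 of endothelium and 2 of 7 of blood and immune cells were higher, with 1 of endothelium lower. Among epithelial types, 10 of 10 alveolar type 2 markers were lower and 9 of 9 neuroendocrine markers higher. Markers of alveolar type 1 cells were mixed (3 of 10 higher, 2 lower), as were airway secretory and ciliated markers (1 of 8 higher, 2 lower). The part of these shifts in cell makeup in the pathway values was not tested. In such pooled cells, fewer cells of a type and less RNA per cell cannot be told apart. Control libraries 5 and 6 stood apart from the other Control libraries in several sums. Type 2 markers summed to 8773 and 7104 CPM in them (others 10566 to 12714), and alveolar type 1 markers to 6653 and 5914 CPM (others 8274 to 9519). Mesothelium markers summed to 160 and 179 CPM (others 279 to 303). Their TMM factors were 1.02 and 1.03 (others 0.930 to 0.944). Both libraries were also left out together in 1 alternative.

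Per kilobase of exon, Shh stood far above the other genes. Its level was 112 ± 12.3 CPM per kilobase in Control (SD, n = 6) and 87.2 ± 6.13 in PRDM3/16KO (SD, n = 5). Smo came next, at 17.8 ± 3.41 and 19.6 ± 1.00 CPM per kilobase, followed by Disp1 at 10.0 ± 0.462 and 16.1 ± 0.720. In both groups these 3 kept that order in every library, without overlap between neighbours. In Control the next 3 were Gli3 (5.79 ± 1.14), Hhip (5.35 ± 1.47) and Boc (4.13 to 7.48 CPM per kilobase, mean 5.16), whose ranges overlapped, then Ptch1 (3.53 ± 1.06), which was below Boc in each Control library. Gli1 (1.13 ± 0.698) and Gli2 (0.252 to 0.773 CPM per kilobase) were lowest, in that order in each of the 11 libraries. In PRDM3/16KO, Gli3, at 3.56 ± 0.115 CPM per kilobase, came after Hhip (6.03 ± 1.69), Boc (4.94 ± 1.05) and Ptch1 (3.94 ± 0.364) by mean. Boc was above Ptch1 in 3 of 5 of these libraries and Ptch1 above Gli3 in 4 of 5, with overlapping ranges. Exon length merges all annotated transcripts of a gene, 14185 bases for Ptch1 and 4451 for Boc, and the order depends on it. In plain CPM the Control means were 50.0 for Ptch1 and 23.0 for Boc.

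**Figure D1:**
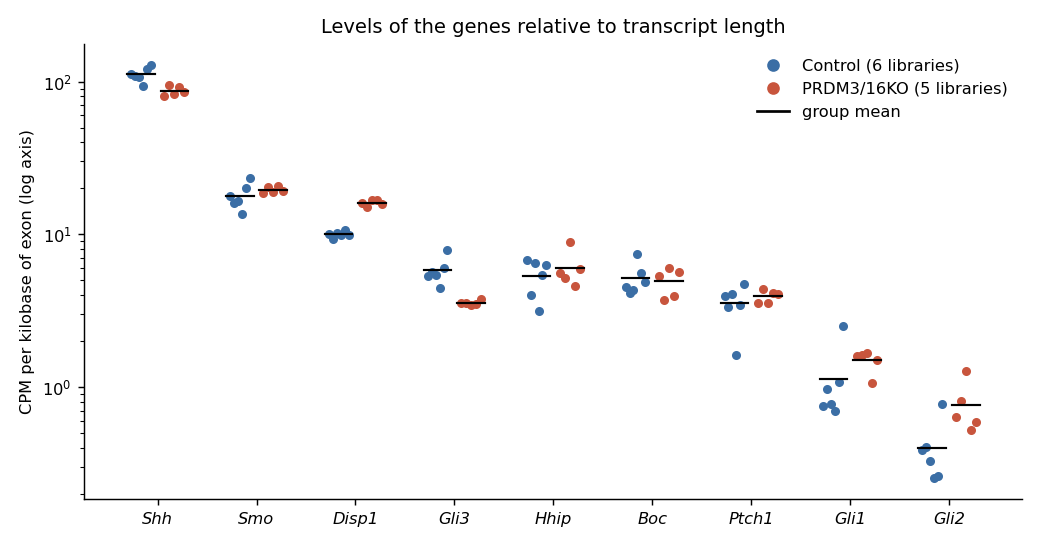
Level of each gene in each library as CPM per kilobase of exon on a log axis, ordered by the Control mean; points are libraries (6 Control, 5 PRDM3/16KO) and lines are group means. Shh is highest at 112 and 87.2 CPM per kilobase, Gli1 and Gli2 are lowest, and the mean of Gli3 is below those of Hhip, Boc and Ptch1 in PRDM3/16KO.

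By edgeR's test 4 of the 9 genes (44.4%) passed the threshold, against 42.9% of all genes tested. Disp1 and Gli2 were higher (21.1% of all genes were) and Shh and Gli3 lower (21.8% of all genes were). The groups' CPM did not overlap for 2 of the 9, Disp1 and Gli3, against 28.5% of all genes. The share of the pathway's genes that changed was near that background. Both genes of ligand supply passed, 0 of the 4 genes of reception did, and 2 of the 3 transcription factor genes did, in opposite directions.

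**Figure D2:**
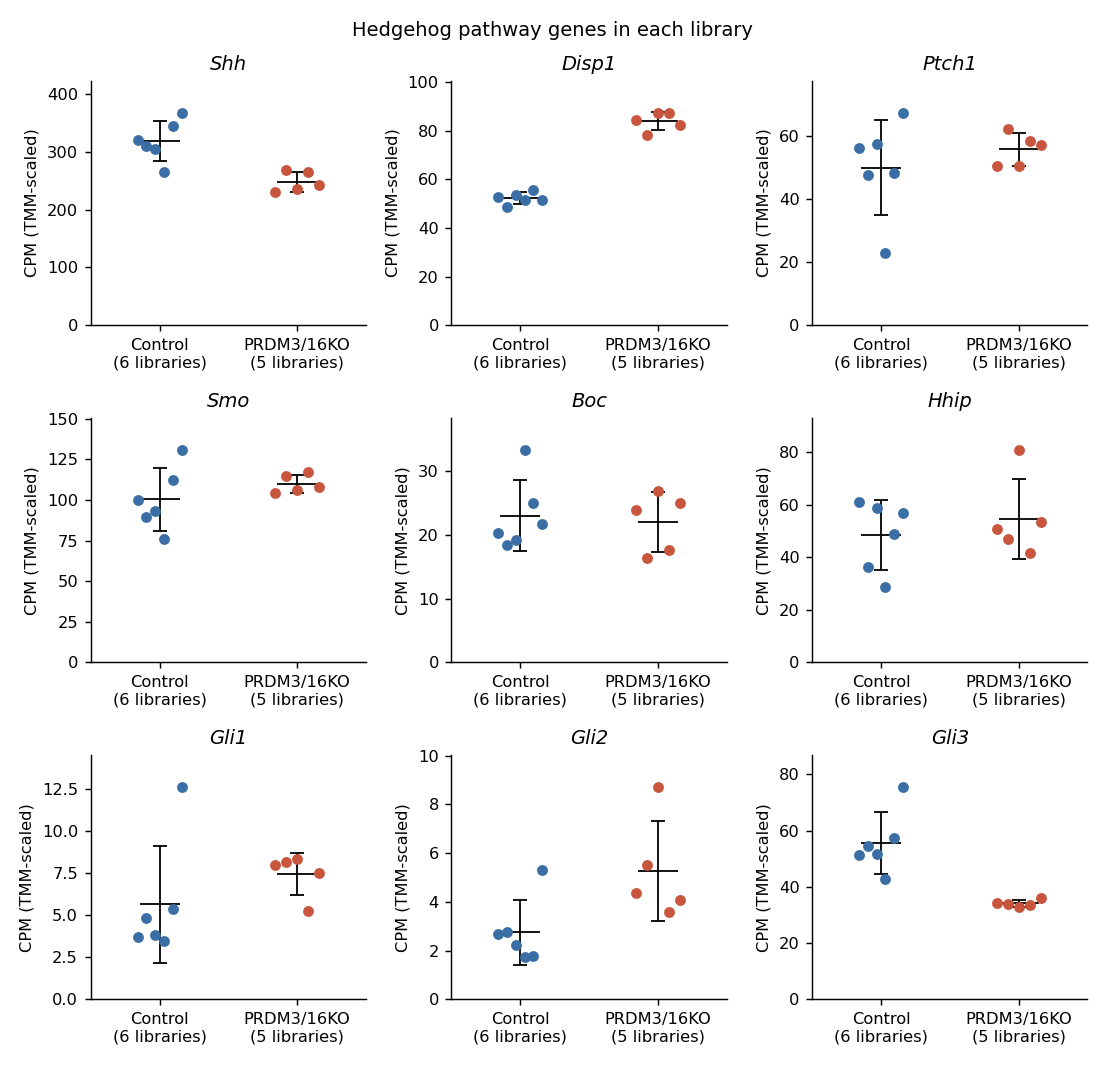
CPM of each gene in each library, with 1 point per library from library 1 at the left of its group, the group mean as a wide line and the SD as bars; each vertical axis starts at 0. The groups lie apart for Disp1 and Gli3, and Control library 6 is the highest Control library for Shh, Ptch1, Smo, Gli1, Gli2 and Gli3.

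Shh, the ligand gene (chromosome 5, 28456815 to 28467256, minus strand), was lower in PRDM3/16KO. Control libraries 1 to 6 held 320, 310, 305, 265, 344 and 368 CPM of Shh, and PRDM3/16KO libraries 1 to 5 held 230, 269, 235, 264 and 242 CPM. Control library 4 was the only Control library within the PRDM3/16KO range. Shh changed by -0.36 on the log2 scale (SE 0.081; edgeR, adjusted p = 0.00212), with a 95% interval of -0.53 to -0.19, which is 0.779 of the Control level. Set against Epcam, the gene of the protein used for selection, Shh ran from 1.08 to 1.42 CPM per CPM of Epcam in Control and from 0.913 to 0.991 in PRDM3/16KO, and these ranges did not overlap. Epcam itself stood at 0.05 on the log2 scale and was not called (edgeR, adjusted p = 0.601). Of the 10 epithelial markers, Epcam included, 5 were not called, 1 was higher (Cldn4, 0.26) and 4 were lower. Those 4 ran from -0.18 (Cdh1) to -1.05 (Elf3), with Nkx2-1 at -0.28 and Cldn7 at -0.37, and are named after their values were seen. The ratio of Shh to Epcam thus depends on the marker chosen. It was picked, like the other ratios given here, after its values were seen and has no test.

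The Shh value combines the genotype with the Cre allele: where Control embryos lack ShhCre, the number of intact Shh copies and the loss of Prdm3 and Prdm16 cannot be told apart. Exons of Shh share 446 bases with the antisense gene 9530036O11Rik, which had 184 counts in Control and 119 in PRDM3/16KO against 12961 and 9641 for Shh, and the strand setting of the counting is not given in the sources used here. Among libraries with high Y-linked transcripts alone, 4 Control and 1 PRDM3/16KO, the log2 fold change of Shh was -0.23 and was not called (edgeR, adjusted p = 0.493, the lone library assumed to vary like the others). Among those with low Y-linked transcripts, 2 and 4, it was -0.48 (edgeR, adjusted p = 0.0063).

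Disp1, whose product releases the ligand (chromosome 1, 183086266 to 183221522, minus strand), was higher in every PRDM3/16KO library than in any Control library. It stood at 52.7, 48.5, 53.6, 51.7, 55.8 and 51.5 CPM in Control and at 84.3, 78.3, 87.3, 87.2 and 82.4 CPM in PRDM3/16KO. The spread within each group was small, 52.3 ± 2.41 (SD, n = 6) and 83.9 ± 3.76 CPM (SD, n = 5). On the log2 scale it rose by 0.68 (SE 0.057; edgeR, adjusted p = 1.6e-07), which is 1.60-fold. It was called under each of the 26 alternatives run, at 0.66 to 0.79. Per length, Shh stood at 9.43 to 13.1 times Disp1 in Control and at 4.95 to 6.31 times Disp1 in PRDM3/16KO.

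Of the receptor genes none passed the test. Ptch1 (chromosome 13, 63508328 to 63573598, minus strand), which encodes the receptor and is a target of the signal, was counted at 56.1, 47.6, 57.4, 23.1, 48.5 and 67.4 CPM in Control and at 50.5, 62.3, 50.6, 58.5 and 57.4 CPM in PRDM3/16KO. Control library 4 was far below the other 10, and the PRDM3/16KO libraries lay inside the Control range. The log2 fold change was 0.15, with a 95% interval of -0.26 to 0.57 (edgeR, adjusted p = 0.552). Without Control library 4 it was 0.01 (edgeR, adjusted p = 0.943).

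Smo (chromosome 6, 29735503 to 29761365, plus strand), the signal transducer that Ptch1 holds in check, was counted at 100.0, 89.8, 92.9, 75.9, 112 and 131 CPM in Control and at 104, 115, 106, 117 and 108 CPM in PRDM3/16KO. The PRDM3/16KO libraries lay between the Control extremes, with a log2 fold change of 0.13 and an interval of -0.10 to 0.36 (edgeR, adjusted p = 0.362). Without Control library 6, the highest, it was 0.22 and called (edgeR, adjusted p = 0.0446), and without Control libraries 5 and 6 it was 0.29 (edgeR, adjusted p = 0.00556). Without Control library 4, the lowest, it was 0.06 (edgeR, adjusted p = 0.611).

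Boc (chromosome 16, 44485049 to 44558897, minus strand), a co-receptor gene, ran from 18.4 to 33.3 CPM in Control and from 16.4 to 26.9 CPM in PRDM3/16KO. Its log2 fold change was -0.06, with an interval of -0.42 to 0.30 (edgeR, adjusted p = 0.805), and it was positive, at 0.05, with library-size scaling alone. Control library 4, the lowest Control library for Ptch1, was the highest for Boc.

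Hhip (chromosome 8, 79965851 to 80058006, minus strand), which encodes a membrane protein that captures hedgehog ligands, was counted at 61.3, 36.4, 59.0, 28.6, 49.0 and 56.9 CPM in Control and at 50.7, 47.2, 80.9, 41.6 and 53.5 CPM in PRDM3/16KO. The groups overlapped widely, and PRDM3/16KO library 3 was the highest of all. The log2 fold change was 0.17, with an interval of -0.28 to 0.62 (edgeR, adjusted p = 0.534). Without PRDM3/16KO library 3 it was -0.0085 (edgeR, adjusted p = 0.979).

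**Figure D3:**
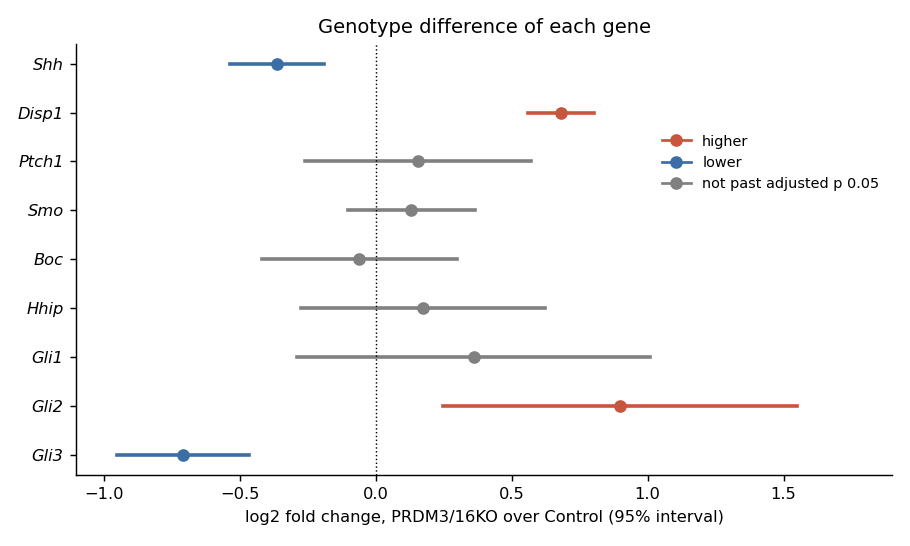
Log2 fold change of each gene, PRDM3/16KO over Control, as points with 95% intervals from the edgeR fit; colours show genes called higher, lower or not past the threshold. Disp1 at 0.68 has the narrowest interval, Gli2 at 0.90 the widest, and the intervals of Ptch1, Smo, Boc, Hhip and Gli1 cross 0.

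Gli3, the gene of the main GLI repressor (chromosome 13, 15463235 to 15730026, plus strand), was lower in PRDM3/16KO. It stood at 51.3, 54.6, 51.8, 42.6, 57.4 and 75.5 CPM in Control and at 34.2, 33.9, 32.9, 33.7 and 35.9 CPM in PRDM3/16KO. The groups did not overlap, and the PRDM3/16KO libraries lay close together (32.9 to 35.9 CPM, against 42.6 to 75.5 CPM in Control). Gli3 changed by -0.71 on the log2 scale (SE 0.11; edgeR, adjusted p = 0.000124), which is 0.612 of the Control level. Without Control library 6, the highest, it was -0.60 and still called. Among the high-Y libraries alone it was -0.60 and not called (edgeR, adjusted p = 0.0777).

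Gli2, the gene of the main GLI activator (chromosome 1, 118834132 to 119053619, minus strand), was counted at 2.66, 2.77, 2.24, 1.73, 1.79 and 5.31 CPM in Control and at 4.38, 5.52, 8.71, 3.60 and 4.07 CPM in PRDM3/16KO. These values rest on 10 to 68 counts per library. Control library 6 lay among the PRDM3/16KO libraries and the other 5 Control libraries below all of them. Gli2 rose by 0.90 on the log2 scale (SE 0.30; edgeR, adjusted p = 0.0267), with a wide interval of 0.25 to 1.55. The call was lost without Control library 3 (edgeR, adjusted p = 0.0558), Control library 4 (0.0506), Control library 5 (0.0582) or PRDM3/16KO library 3 (0.0917), and with the Y-linked covariate (0.64; edgeR, adjusted p = 0.0666). It was also lost within the low-Y (0.47; edgeR, adjusted p = 0.411) and the high-Y libraries (0.77; edgeR, adjusted p = 0.305).

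Gli1, a direct target gene and an activator itself (chromosome 10, 127329882 to 127341974, minus strand), was counted at 3.73, 4.84, 3.84, 3.47, 5.37 and 12.6 CPM in Control and at 7.96, 8.15, 8.32, 5.27 and 7.53 CPM in PRDM3/16KO. Control library 6 was the highest of all 11, while the other 5 Control libraries were below the PRDM3/16KO range except for library 5, which was just above its lowest value. The log2 fold change was 0.36, with an interval of -0.29 to 1.01 (edgeR, adjusted p = 0.364). Without Control library 6 it was 0.79 and called (SE 0.18; edgeR, adjusted p = 0.00155). Without that library 6 of the 9 genes passed, Smo among them.

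Per length, Gli3 stood at 10.2 to 23.0 times Gli2 in Control and at 2.71 to 6.70 times Gli2 in PRDM3/16KO, ranges that did not overlap. The ratio of Gli3 to Gli1 ran from 3.12 to 7.17 in Control and from 2.06 to 3.33 in PRDM3/16KO, with Control library 6 lowest in its group.

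Mesenchyme markers were read beside these values, since mesenchymal cells express the genes of reception. Their summed level in Control libraries 1 to 6 was 667, 519, 616, 448, 545 and 838 CPM, and in PRDM3/16KO libraries 1 to 5 it was 918, 700, 1218, 696 and 830 CPM. Control library 6 was the highest Control library and Control library 4 the lowest, as for Shh, Gli1, Gli2, Gli3, Ptch1 and Smo. PRDM3/16KO library 3, the highest for Gli2 and Hhip, had the highest sum. The collagen gene Col1a1 was 1.70-fold higher (log2 fold change 0.77; edgeR, adjusted p = 0.00465) and Col3a1 went from 79.7 ± 16.3 to 130 ± 33.2 CPM (0.70), while Pdgfra, the growth factor receptor of fibroblasts, was at 23.0 ± 6.86 and 20.1 ± 7.43 CPM (-0.20, not called).

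With the mean log2 CPM of these markers as a covariate, the log2 fold change of Gli2 was 0.21 and not called (edgeR, adjusted p = 0.681), and that of Gli1 was -0.24 (edgeR, adjusted p = 0.628). Gli3 was at -0.89 (edgeR, adjusted p = 0.000311), Disp1 at 0.66 and Shh at -0.36 (edgeR, adjusted p = 0.0347), all called. The covariate itself ran from 3.91 to 4.50 in Control and from 4.23 to 4.98 in PRDM3/16KO. It is thus partly tied to genotype, so a call kept or lost under it cannot separate cell makeup from genotype. As a share of the summed mesenchyme markers, Gli2 ran from 0.329% to 0.633% in Control and from 0.477% to 0.788% in PRDM3/16KO. Gli3 ran from 7.69% to 10.5% and from 2.70% to 4.84%, without overlap. Shh, the ligand gene, ran from 43.9% to 63.2% and from 19.3% to 38.4%, also without overlap. Ranges overlapped for Smo (15.0% to 20.6% and 8.74% to 16.8%), Hhip (6.39% to 9.58% and 5.52% to 6.74%) and Disp1 (6.14% to 11.5% and 7.17% to 12.5%). The shares of Ptch1, Boc and Gli1 overlapped too. The sum that divides these shares ran higher in PRDM3/16KO, which lowers every share there. Separation of the shares is not particular to Gli3, since Shh has it as well. In plain CPM, which this sum does not enter, the groups lay apart for Gli3 and overlapped for Shh. Whether mesenchymal cells contribute to the Gli1, Gli2 and Hhip values was not tested.

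**Figure D4:**
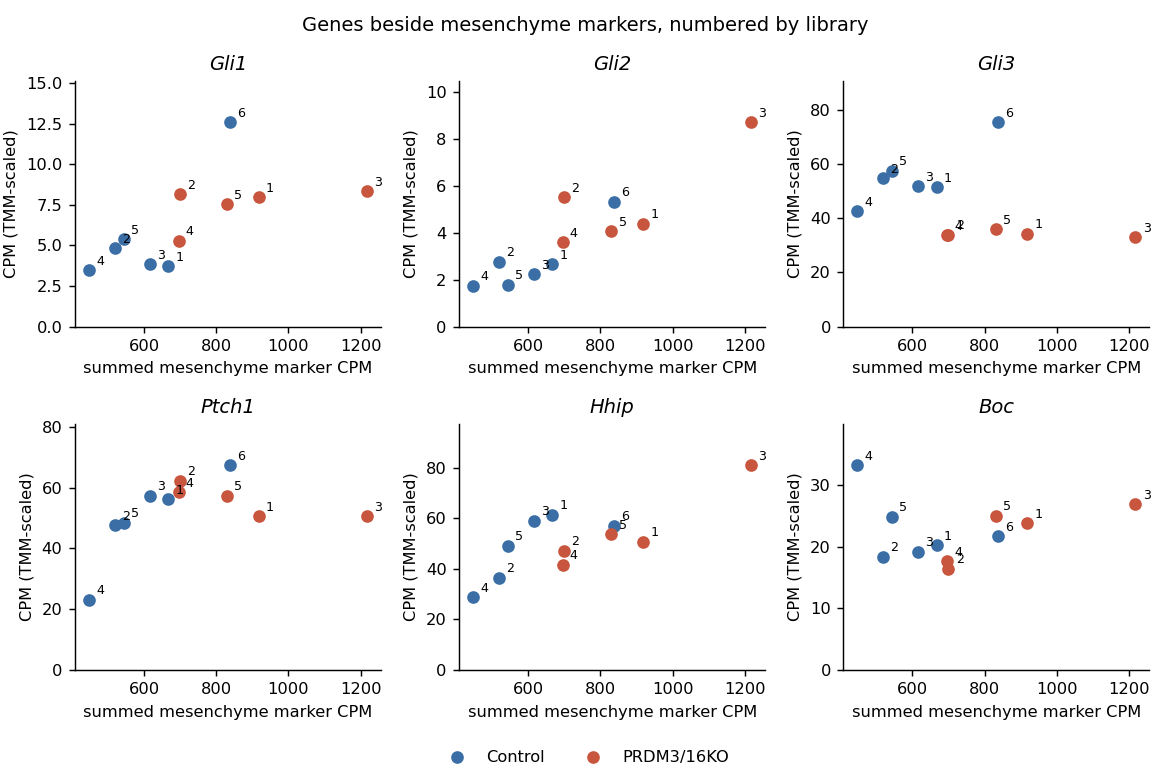
CPM of 6 genes in each library against the summed CPM of 20 mesenchyme markers, with points numbered by library within each group. Control library 6, at 838 CPM of markers, is high for Gli1, Gli2 and Gli3, and the PRDM3/16KO libraries lie below all Control libraries for Gli3. Control library 6 is the only Control library within the PRDM3/16KO range of marker sums, 696 to 1218 CPM.

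Other genes of ligand handling changed in both directions. Of 10 listed, 6 were tested, and 2 rose and 1 fell, a share near the 42.9% of all genes called, with a median log2 fold change of 0.35 (0.23 without PRDM3/16KO library 1). Disp2, a relative of Disp1, rose from 7.67 ± 1.79 to 18.4 ± 1.35 CPM (log2 fold change 1.27, SE 0.14; edgeR, adjusted p = 3.99e-06). Scube2, which encodes a secreted protein that helps carry the ligand away, rose from 4.33 ± 1.08 to 7.36 ± 1.48 CPM (0.78). The protease gene Adam17 fell from 137 ± 11.9 to 109 ± 4.48 CPM (-0.33). Hhat, whose enzyme adds palmitate to the ligand, was at 0.05 and not called. With the mesenchymal covariate 1 of the 6 rose and 0 fell, at a median of 0.19. The other ligand genes were too low to test: Ihh had 46 counts over the Control and 28 over the PRDM3/16KO libraries, and Dhh had 4 and 6. Shh was therefore the only hedgehog ligand gene tested.

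Among 11 other genes of reception, 8 were tested, of which 4 rose and 2 fell, 75% against 42.9% of all genes called; Mosmo was not analysed here. The co-receptor gene Cdon, a relative of Boc, rose from 74.4 ± 6.13 to 132 ± 7.88 CPM (log2 fold change 0.83, SE 0.068; edgeR, adjusted p = 1.18e-07), and the co-receptor gene Gas1 rose from 5.93 ± 0.875 to 10.6 ± 2.64 CPM (0.83). Both had ranges that did not overlap. Lrp2, the gene of the endocytic receptor megalin, fell from 18.3 ± 8.86 to 6.56 ± 1.16 CPM (-1.46), and Mgrn1, a ubiquitin ligase gene, fell from 131 ± 10.9 to 98.6 ± 4.18 CPM (-0.41). Evc (0.86) and Evc2 (0.33), of the protein complex at the base of the cilium, rose as well, and are named after their values were seen. Gpc3 (-0.14), a glypican gene, was at 304 ± 30.7 CPM in Control and did not pass. Of the 3 classic co-receptor genes, Cdon and Gas1 thus rose while Boc was not called. With the mesenchymal covariate 1 gene of the 8 rose and 1 fell, at a median of 0.17 against 0.21 without it.

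Of 20 genes of signal transduction, 4 rose and 2 fell, beside 42.9% of all genes called, and the median log2 fold change was 0.0087, close to 0.0023 for all genes. Prkaca, the catalytic subunit of protein kinase A, which marks GLI proteins for processing, fell from 165 ± 9.27 to 116 ± 2.97 CPM (-0.51, SE 0.055; edgeR, adjusted p = 2.16e-06). The kinase gene Grk2, listed under its older symbol Adrbk1, rose from 46.3 ± 4.43 to 59.1 ± 3.91 CPM (0.36). Btrc (0.53), which encodes a subunit of the ubiquitin ligase that binds phosphorylated GLI, and Kif7 (0.67), a ciliary kinesin gene, rose. The other calls, named after their values were seen, were Dyrk2 (0.16), a kinase gene, which rose, and Cul3 (-0.24), a ubiquitin ligase scaffold gene, which fell. Gnas (-0.06) and Csnk1a1 (-0.11) were the most abundant that did not pass, and Sufu, the gene of the main inhibitor of GLI proteins, was at -0.13, also not called and chosen after its value was seen. With the mesenchymal covariate 1 of the 20 rose and 1 fell, at a median of 0.0040.

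Genes of intraflagellar transport and the primary cilium numbered 20, of which 3 rose and 0 fell, beside 42.9% of all genes called. Mks1 (log2 fold change 0.42), Kif3a (0.25) and Ift122 (0.23) were the 3, while Inpp5e (0.0037) and Ift80 (-0.07) did not pass. The median was 0.09. Without Control library 4, and likewise without TMM, 6 rose and 0 fell, while without PRDM3/16KO library 1 the count was 1 and 0; with single libraries left out the median ran from 0.06 to 0.14. With the mesenchymal covariate 0 of the 20 were called by edgeR, at a median of 0.08.

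Of 20 genes that answer hedgehog in embryonic mesenchyme, 15 were tested. Of these, 6 rose and 1 fell, 46.7% beside 42.9% of all genes called, and the median log2 fold change was 0.42. Foxd2, a forkhead gene, had 15 counts over the Control and 387 over the PRDM3/16KO libraries and rose from 0.388 ± 0.249 to 9.97 ± 1.68 CPM (4.67). Bcl2, which guards against cell death, rose from 11.8 ± 3.25 to 32.4 ± 2.08 CPM (1.44), and the cyclin gene Ccnd2 from 227 ± 20.7 to 418 ± 26.3 CPM (0.88). Osr1 (1.70), Tbx3 (1.29) and Wnt5a (1.11) rose as well, and are named after their values were seen. Bmp4, a growth factor gene that the distal lung epithelium also expresses, fell from 172 ± 9.69 to 49.3 ± 6.08 CPM (-1.80, SE 0.080; edgeR, adjusted p = 1.91e-10). Which cells the transcripts of the called genes came from, epithelial or mesenchymal, was not tested. Igfbp6 (-0.46) and Ccnd1 (0.17) did not pass. Foxf1 and Foxf2, the forkhead targets in lung mesenchyme, had log2 fold changes of 0.17 and -0.11 and were not called; they stand outside the naming rule and were chosen after their values were seen. With the mesenchymal covariate the list still had 6 genes higher and 1 lower, while its median was 0.02. Without Control library 6 it had 8 higher and 2 lower, and without PRDM3/16KO library 3 its median was 0.17.

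**Figure D5:**
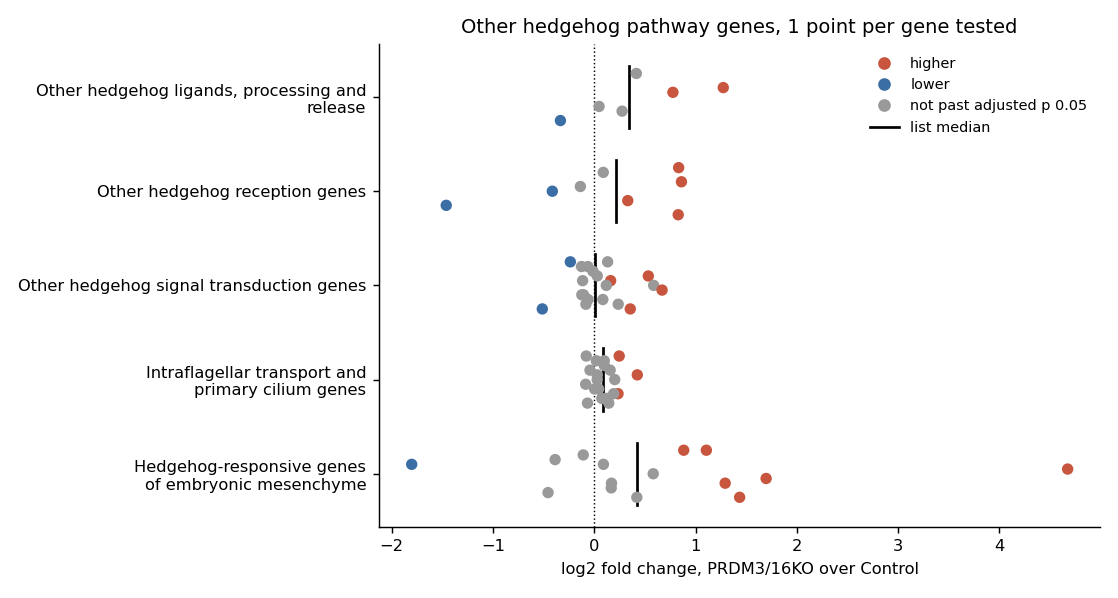
Log2 fold change, PRDM3/16KO over Control, of each tested gene in 5 lists of further pathway genes; colours show the edgeR call and black lines the list medians. The medians of the signal transduction and cilium lists lie near 0, while single signal transduction genes run from -0.51 (Prkaca) to 0.67 (Kif7). Foxd2 at 4.67 and Bmp4 at -1.80 lie farthest out.

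The genes that varied most like Shh, Ptch1 and Gli1 were sought by the correlation of their deviations from the group mean of log2 CPM over the 11 libraries, among 11212 genes averaging 5 CPM or more. This is a description of shared variation, and the libraries share their composition and depth across genes. For Shh they were Dcps (r = 0.98), Sh2b1 (0.97) and Ttyh3 (0.95). For Ptch1 they were Prr12 (r = 0.98), Abl1 (0.98) and Rbm26 (0.98). For Gli1 they were Cmtr2 (r = 0.96), Ednrb (0.96) and Rgag4 (0.95). In each of the 3 cases the libraries farthest from their group mean were Control libraries 4 and 6; without them r ran from 0.92 to 0.96 for the Shh genes, from 0.82 to 0.85 for the Ptch1 genes and from 0.83 to 0.91 for the Gli1 genes.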

How the data were processed

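Messenger RNA of EpCAM-selected lung cells was sequenced in 11 libraries. The authors deposited raw counts per gene symbol. The submitters' processing notes name HTSeq 2.0, Bowtie2 2.4.2, Trim Galore 0.4.2, Picard 2.18.22, SAMtools 1.10.0, FastQC, DESeq2 and the build mm10, without roles. Annotation, strand setting and handling of multi-mapped reads: not given in the sources used here. Counted library totals include 27 symbols that read as dates.

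Low counts were removed with filterByExpr, libraries were scaled by TMM, and genotype was tested with edgeR 4.0.16 (R 4.3.3; quasi-likelihood F-test, robust, two-sided, Benjamini-Hochberg over 13916 genes, threshold 0.05), which also gives every adjusted p in the text unless another tool is named. The steps were checked on simulated counts, with 50 genes changed at each of several folds. At 1.25-fold 22% of them were called, at 1.5-fold 52%, at 2-fold 94% and at 4-fold 98%. Small changes can thus go uncalled. Far fewer genes changed there than were called in these data, so the check does not cover so broad a change. Standard errors are the unshrunk coefficient over the square root of F, and intervals use the fit's degrees of freedom. Values are mean ± SD over 6 Control and 5 PRDM3/16KO libraries. Exon lengths (the merged exons of all transcripts of a gene) and coordinates, counted from 1, are from GENCODE M21.

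The genes, the lists and the naming rule were chosen with earlier results of these data known. The naming rule takes the 9 genes, Prdm16, Mecom, Epcam and mesenchyme markers, up to 4 called and 2 abundant uncalled genes per list, and the 3 genes most like Shh, Ptch1 and Gli1; a gene it takes is not reported here. High-Y and low-Y libraries are divided at a mean log2 CPM of 3 over 4 Y-linked genes. Alternatives were other scalings, filters, DESeq2 1.42.0, limma-voom (limma 3.58.1), covariates, subsets and leaving out each library.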

Additional observations from a re-analysis of the deposited data

Results flagged for a closer look

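In 3 of 18 sets of values (9 genes in each group) a library stood apart from the rest of its group by Dixon's criterion, which flags about 1 group in 20 by chance. Gli1 was at 12.6 CPM in Control library 6, where the gap to the next library was 0.791 of the group's range (critical value 0.625 for 6 libraries). Gli2 was at 5.31 CPM in the same library, with a gap of 0.711 of the range. Gli1 was at 5.27 CPM in PRDM3/16KO library 4, the lowest of its group, with a gap of 0.738 of the range (critical value 0.71 for 5 libraries).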

How the results depend on the processing

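Of 26 alternatives, Disp1 kept its direction and call in 26, Shh and Gli3 in 25 each and Gli2 in 18. With the mesenchymal covariate 3518 genes were called, 1807 higher and 1711 lower; among low-Y libraries 3753, 1932 and 1821; among high-Y libraries 1802, 869 and 933, with 1 of the 9 pathway genes called. Fewer libraries enter the last 2 fits; for the covariate the cause was not tested. Leaving out each library in turn gave 5375 to 6389 calls, 2644 to 3120 higher and 2620 to 3269 lower, and 3 to 6 of the 9 genes. Directions turned for genes that were not called: with the mesenchymal covariate Hhip was at -0.31 and Gli1 at -0.24; among low-Y libraries Ptch1 was at -0.068, Smo at -0.035, Boc at 0.19 and Gli1 at -0.15; among high-Y libraries Hhip was at -0.26. Boc was at 0.046 with library-size scaling and 0.045 with limma-voom and library weights, and ran from -0.14 to 0.070 with single libraries left out, Hhip from -0.0085 to 0.26. The cause was not tested. Whether a replicate number pairs libraries is not in the labels. Deviations of same-numbered libraries correlated from -0.06 to 0.27, which cannot decide it. With the replicate number as a block, over libraries 1 to 5 of each group and so without Control library 6, Gli1 was at 0.80 and called (edgeR, adjusted p = 0.00171), as it was at 0.59 with limma-voom and library weights (limma, adjusted p = 0.0331); the block changed no other call of the 9 genes. Depth limits Gli1 and Gli2 most, with 20 to 102 and 10 to 68 counts per library.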
